A study of Caenorhabditis elegans with 2 samples.

Results

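The 10 Argonaute genes described here are csr-1, hrde-1, wago-1, wago-4, prg-1, alg-3, alg-4, ergo-1, alg-1 and alg-2, out of 19973 nuclear protein-coding genes of Caenorhabditis elegans. They were chosen by name, with earlier results of these data known, so counts among them are a description. Their promoters were looked up in chromatin immunoprecipitation sequencing (ChIP-seq) peak lists for the transcription factor EFL-1. Chromatin came from whole young adult hermaphrodites of strain YL478, a transgenic line with stable expression of EFL-1 carrying GFP and FLAG at its C-terminus, and was precipitated with an antibody that the description gives as directed against GFP. Another label names the antibody efl-1, so whether untagged EFL-1 was also precipitated was not tested. There was 1 group of 2 biological replicates, and both carried the same tagged EFL-1. No source used here gives the promoter driving the transgene or the state of the untagged efl-1 gene, and the control experiment named in the labels was not analysed here. Whole animals mix germ line and somatic nuclei, so a peak cannot be assigned to a tissue.

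EFL-1 is a worm member of the E2F family, whose proteins bind DNA with a DP partner and act on cell-cycle and germ line genes. Argonaute proteins carry a small RNA that guides them to a complementary transcript. CSR-1, HRDE-1, WAGO-1 and WAGO-4 carry secondary siRNAs, which RNA-dependent RNA polymerases make on target transcripts in the germ line. CSR-1 is associated with expressed germ line genes, HRDE-1 acts in the nucleus in heritable silencing, WAGO-1 acts in silencing in perinuclear granules, and WAGO-4 acts in inheritance of RNA interference. PRG-1 is a Piwi protein that carries piRNAs. ALG-3 and ALG-4 carry primary siRNAs of spermatogenesis, ERGO-1 carries those of oogenesis and the embryo, and ALG-1 and ALG-2 carry microRNAs.

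The deposited peaks at csr-1, hrde-1, wago-4 and alg-2 are shown because they carry, with that of wago-1, whose sequence is not shown, the main result. It is that EFL-1 regions of high signal lay within 500 bp of an annotated start site of these genes. At csr-1 this was an internal start site alone, and the hrde-1 summit lay nearer to the start of C16C10.13. The peaks are shown on the plus strand of build ce11 (WBcel235), with sequence from RefSeq. They lie at chrIV:7958053-7958305 for csr-1, chrIII:4176261-4176530 for hrde-1, chrII:12919261-12919495 for wago-4 and chrII:873185-873364 for alg-2. Genes csr-1, wago-4 and alg-2 read left to right, and hrde-1 reads right to left. Capitals in csr-1 mark an E2F core sequence, searched on both strands in the form TTCCCGC, the form TTCGCGC, the form TTGCCGC and the form TTGGCGC. Capitals in hrde-1 and wago-4 mark the cell cycle genes homology region (CHR) sequence, an element of promoters bound by DREAM complexes, searched on both strands in the form TTTGAA and the form TTCGAA.
csr-1: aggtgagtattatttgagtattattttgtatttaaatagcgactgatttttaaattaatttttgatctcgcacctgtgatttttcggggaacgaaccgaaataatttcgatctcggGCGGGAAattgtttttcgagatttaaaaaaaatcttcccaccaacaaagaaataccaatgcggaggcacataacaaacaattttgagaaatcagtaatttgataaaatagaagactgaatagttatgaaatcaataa
hrde-1: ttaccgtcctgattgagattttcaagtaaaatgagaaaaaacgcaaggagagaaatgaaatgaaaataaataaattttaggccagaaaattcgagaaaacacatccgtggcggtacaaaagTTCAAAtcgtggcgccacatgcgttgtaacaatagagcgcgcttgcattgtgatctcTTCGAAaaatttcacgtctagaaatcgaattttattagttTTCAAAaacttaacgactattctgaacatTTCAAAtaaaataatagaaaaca
wago-4: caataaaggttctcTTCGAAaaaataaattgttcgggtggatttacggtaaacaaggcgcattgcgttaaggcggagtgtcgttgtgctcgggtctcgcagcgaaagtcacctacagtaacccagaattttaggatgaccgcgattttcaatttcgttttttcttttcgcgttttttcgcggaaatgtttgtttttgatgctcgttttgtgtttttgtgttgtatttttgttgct
alg-2: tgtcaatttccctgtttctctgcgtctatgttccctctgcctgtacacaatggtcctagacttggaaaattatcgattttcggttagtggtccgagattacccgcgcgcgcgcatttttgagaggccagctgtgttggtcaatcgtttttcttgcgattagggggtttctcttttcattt

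The csr-1 peak held the only E2F core sequence found within 100 bp of the summit at any promoter peak of the 5 genes with one. It lay on the minus strand at chrIV:7958169-7958175, 23 bp from the summit, so the plus strand above reads GCGGGAA. Such a sequence was found within 100 bp of 29.7% of the 2802 nuclear optimal peaks, and in 6.28% of the 19973 promoters, taken as 201 bp upstream of the outermost start site. The CHR letters were found within 100 bp of the summit at 1 of the 5 genes, hrde-1, which held 3 in that window. The hrde-1 peak as a whole held 4, and the wago-4 peak held 1, which lay 103 bp from the summit. Over the whole list, the CHR letters were found within 100 bp of 58.7% of the optimal peaks and in 56.2% of promoters. A match in these windows is a run of letters, and no EFL-1 site was mapped to it. The G and C content was 30.8% in the csr-1 peak, 33.3% in hrde-1, 40.4% in wago-4 and 46.1% in alg-2.

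Peaks came from the optimal list, which the authors thresholded by the irreproducible discovery rate (IDR) on both replicates. A gene had a promoter peak when the summit of an optimal peak lay within 500 bp of one of its annotated start sites. By this rule 5 of the 10 Argonaute genes had a promoter peak, beside 10.9% of all nuclear protein-coding genes. The 4 genes chosen here for carriers of secondary siRNAs each had one. Among further genes of that group, given with the other Argonautes, ppw-1 and ppw-2 had one. At 6 others, no region lay within 500 bp of a start site. A region of the joint list, described below, lay that close to a start site at 35.5% of all nuclear protein-coding genes. Of the other 6 of the 10 Argonaute genes, only alg-2 had a promoter peak. The authors' signal value, on a scale that no source used here gives, had a median of 293 over these 5 genes and 93.4 over the 2187 genes with a promoter peak. All 5 lay above 93.4. Read counts are not part of the lists, so depth is unknown, and the lists for the replicates and for both together were called separately.

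The gene hrde-1 (WBGene00007624) had the strongest peak among the Argonautes. The gene lies on the minus strand at chrIII:4172337-4176159 and has 1 start site. The summit lay 249 bp upstream of it, between genes, with a signal of 929, which ranked 54 of the 2802 nuclear optimal peaks. The overlapping region had a signal of 568 in replicate 1, rank 39 in that list, and 373 in replicate 2, rank 76. Both replicates thus placed it near the top of their lists, with summits 10 bp apart. The peak is shared: its summit lay 32 bp upstream of the divergent gene C16C10.13 (WBGene00007632), nearer than to hrde-1.

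At csr-1 (WBGene00017641), on the plus strand at chrIV:7957267-7962157, the peak lay inside the gene. Its summit preceded the b transcript's start site by 415 bp and lay 630 and 931 bp downstream of the start sites of the a transcripts. The a transcripts encode the longer CSR-1 protein, described in the spermatogenic germ line, and the b transcript encodes the shorter one, found more widely in the germ line. The signal was 406, rank 199, and the summit lay in an intron of csr-1. Replicate 1 had a signal of 324 there, rank 111, and replicate 2 had 69.3, rank 637. Replicate 1 was 4.68 times replicate 2, a larger ratio than at 98.7% of the 2765 optimal peaks with a region in both replicates, where the median ratio was 1.21.

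A second optimal peak at csr-1 adjoined the first, at chrIV:7958305-7958507, with its summit 215 bp upstream of the b start site. Its signal was 47.4, rank 2387, near the lowest signal of the optimal list, 40.1. It overlapped no region of replicate 1 and a region of signal 50.4, rank 955, in replicate 2. The outermost a start site had only a joint-list region 37 bp upstream, with a signal of 21.9, below the optimal threshold. That region had a signal of 11.5 in replicate 1 and 4.10 in replicate 2. The first csr-1 summit was also 394 bp downstream of a start site of frpr-10 (WBGene00019019), a gene that overlaps csr-1 and is predicted to encode a neuropeptide receptor.

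The gene wago-4 (WBGene00010263), on the plus strand at chrII:12919551-12923377, had a summit 168 bp upstream of its start site, between genes. Its signal was 293, rank 292, with 137 in replicate 1, rank 354, and 157 in replicate 2, rank 247. This was one of the pair of member promoters where replicate 2 was the higher, by 1.15 times. The summit also lay 373 bp upstream of F58G1.2 (WBGene00010264), so this peak counts for both genes.

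The gene wago-1 (WBGene00011061), on the plus strand at chrI:7235384-7238792, had a summit 308 bp upstream of its start site, between genes. The peak, at chrI:7234968-7235200, had a signal of 254, rank 347. Replicate 1 had 173, rank 267, and replicate 2 had 84.6, rank 499. No other coding gene started within 500 bp of this summit, and the replicate summits lay 4 bp apart. Neither the E2F core nor the CHR letters were found in this peak.

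The microRNA Argonaute alg-2 (WBGene00000106), on the plus strand at chrII:873212-879885, had a summit 41 bp downstream of its outermost start site, in a coding exon. Its signal was 169, rank 549, the lowest of the 5 genes. The upper quartile over all genes with a promoter peak was 175, and the other 4 Argonautes with a peak lay above it. Replicate 1 had 78.6, rank 701, and replicate 2 had 97.8, rank 421. No other coding gene shared this peak.

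**Figure D1:**
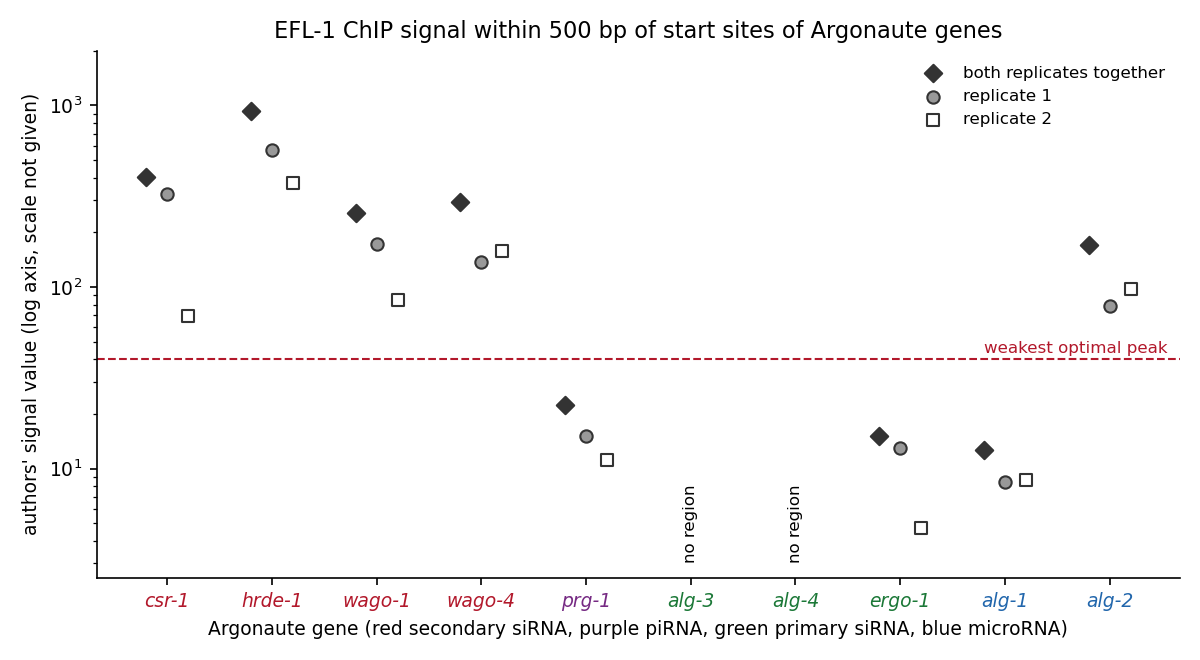
Signal value (log axis) of the strongest region within 500 bp of a start site of each Argonaute gene, in the joint or optimal list and in the list of each replicate. The 5 genes with an optimal peak lay between 169 and 929, the 3 with a joint-list region alone lay between 12.6 and 22.4, and alg-3 and alg-4 had no region; the dashed line is the lowest optimal signal, 40.1, and applies to the joint values only. At ergo-1 and alg-1 the points of the replicates come from different start sites.

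The remaining 5 Argonautes were looked up in the joint list, which holds 30000 regions called on both replicates together and reaches into background. By signal, the 2802 nuclear optimal peaks are the strongest 2802 of the nuclear joint-list regions. A call thus amounts to a signal of 40.1 or more, and 2765 of these peaks overlapped a region in both replicates. Of all 10 Argonautes, 8 had a joint-list region within 500 bp of a start site, beside 35.5% of all nuclear protein-coding genes. For 3 of these the region was below the optimal threshold, and alg-3 and alg-4 had none.

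The Piwi gene prg-1 (WBGene00004178), on the minus strand at chrI:7585329-7588367, was the member closest below the threshold. Its joint-list region, 182 bp upstream of the start site, had a signal of 22.4, rank 5891, with a −log10 q of 2.48 against 3.88 for every optimal peak. Replicate 1 had 15.2 there and replicate 2 had 11.2, with summits 204 bp apart. The region is shared: its summit lay 31 bp upstream of the divergent gene D2030.7 (WBGene00008417), nearer than to prg-1. Among genes with a joint-list region, 51.4% had a weaker one than prg-1. Neither neighbouring coding gene, mce-1 or D2030.7, had a promoter peak.

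The gene ergo-1 (WBGene00019971), on the plus strand at chrV:1008803-1018352, had 5 joint-list regions in the windows of its 4 start sites. The strongest lay 118 bp upstream of an internal start site and had a signal of 15.1, rank 11072. Replicate 1 had 12.9 there, and replicate 2 had no overlapping region. At the outermost start site the signal was 7.55, with 4.73 in replicate 2 and no region in replicate 1. All 5 regions were below the optimal threshold of 40.1, and the neighbours Y50D4C.5 and R09A1.3 had no promoter peak.

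The microRNA Argonaute alg-1 (WBGene00000105), on the plus strand at chrX:13949110-13956261, had a joint-list signal of 12.6, rank 14635, at 52 bp upstream of its outermost start site. Replicate 2 had 8.66 there, and replicate 1 had no overlapping region. A second joint-list region, 277 bp upstream of an internal start site, had 11.3, with 8.42 in replicate 1 and none in replicate 2. The paralogous pair thus differed in these lists: alg-2 had an optimal peak seen in both replicates, and each alg-1 region was seen in 1 replicate. Chromosome X held 84 of the 2802 nuclear optimal peaks and 1531 of the 29975 nuclear joint-list regions. Whether the chromosome bears on the alg-1 values was not tested. The neighbours of alg-1, elt-3 and syx-2, had no promoter peak.

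The spermatogenesis genes alg-3 (WBGene00011910, plus strand, chrIV:11704246-11708264) and alg-4 (WBGene00006449, minus strand, chrIII:9887209-9891424) had no region in the joint list or in either replicate's list. The nearest joint-list summit lay 8455 bp from alg-3, an optimal peak of signal 56.4, and 7088 bp from alg-4, a region of signal 17.2 that was not in the optimal list. In the genome sequence, 99.9% of the 36-base windows within 500 bp of the start sites of each gene occur once in the nuclear genome. The neighbours T22B3.3 and magi-1 of alg-3, and ZK757.10 and mam-7 of alg-4, had no promoter peak.

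**Figure D2:**
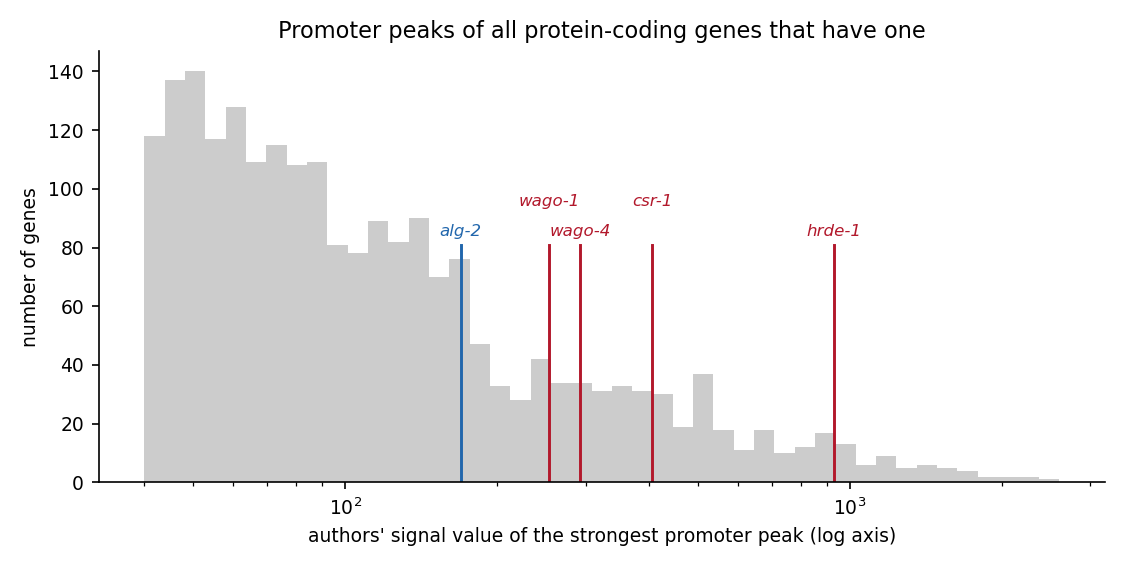
Histogram of the number of genes by the signal (log axis) of their strongest promoter peak, over all 2187 genes with one, with vertical lines at the 5 Argonaute genes. The gene hrde-1 ranked 58 of these genes, csr-1 228, wago-4 340, wago-1 395 and alg-2 576, and all lie above the median of 93.4.

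Replicates were compared at the 5 promoter peaks by the ratio of replicate 1 to replicate 2. The gene csr-1 had the highest ratio, 4.68, followed by wago-1 at 2.05 and hrde-1 at 1.52. At wago-4 and alg-2 replicate 2 was the higher, and the ratios were 0.868 and 0.805. The lists of the replicates were called separately and depth is unknown, so a ratio away from 1 is not a difference in binding. With 2 replicates of 1 group, no test was made.

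Optimal peaks also lay at the 3′ ends of Argonaute genes, a pattern noticed after the values were seen. They were within 500 bp of the 3′ end at csr-1, hrde-1, wago-1, wago-4 and prg-1, and at none of alg-1, alg-2, alg-3, alg-4 and ergo-1. The share of all genes by this rule is not given here. At csr-1 a frpr-10 start site also lay within 500 bp of the summit. The other 4 had no coding start site that close, which was so for 3.20% of all nuclear protein-coding genes. Of the 5 Argonautes with a promoter peak, 3 had such a 3′-end peak, beside 11.7% of the genes with a promoter peak. The strongest was at wago-4, with a signal of 115, rank 912, and 83.8 in replicate 1 and 30.0 in replicate 2. At prg-1, which had no promoter peak, the signal was 90.6, rank 1185, with 73.9 in replicate 1 and 29.7 in replicate 2, and its summit lay in an intron of D2030.12. At csr-1 the signal was 84.3, with 66.6 in replicate 1 and 22.8 in replicate 2. The signal was 55.8 at hrde-1, with 43.0 in replicate 1 and 23.2 in replicate 2. At wago-1 it was 49.0, with 38.0 in replicate 1 and 29.9 in replicate 2. At the 4 of these genes with a promoter peak, the promoter peak was the stronger. The convergent gene C16C10.4 ended 113 bp from the 3′ end of hrde-1, and dhp-1 ended 200 bp from that of wago-1. The 3′-end peaks of hrde-1 and wago-1 thus also lay near the 3′ ends of these neighbours.

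**Figure D3:**
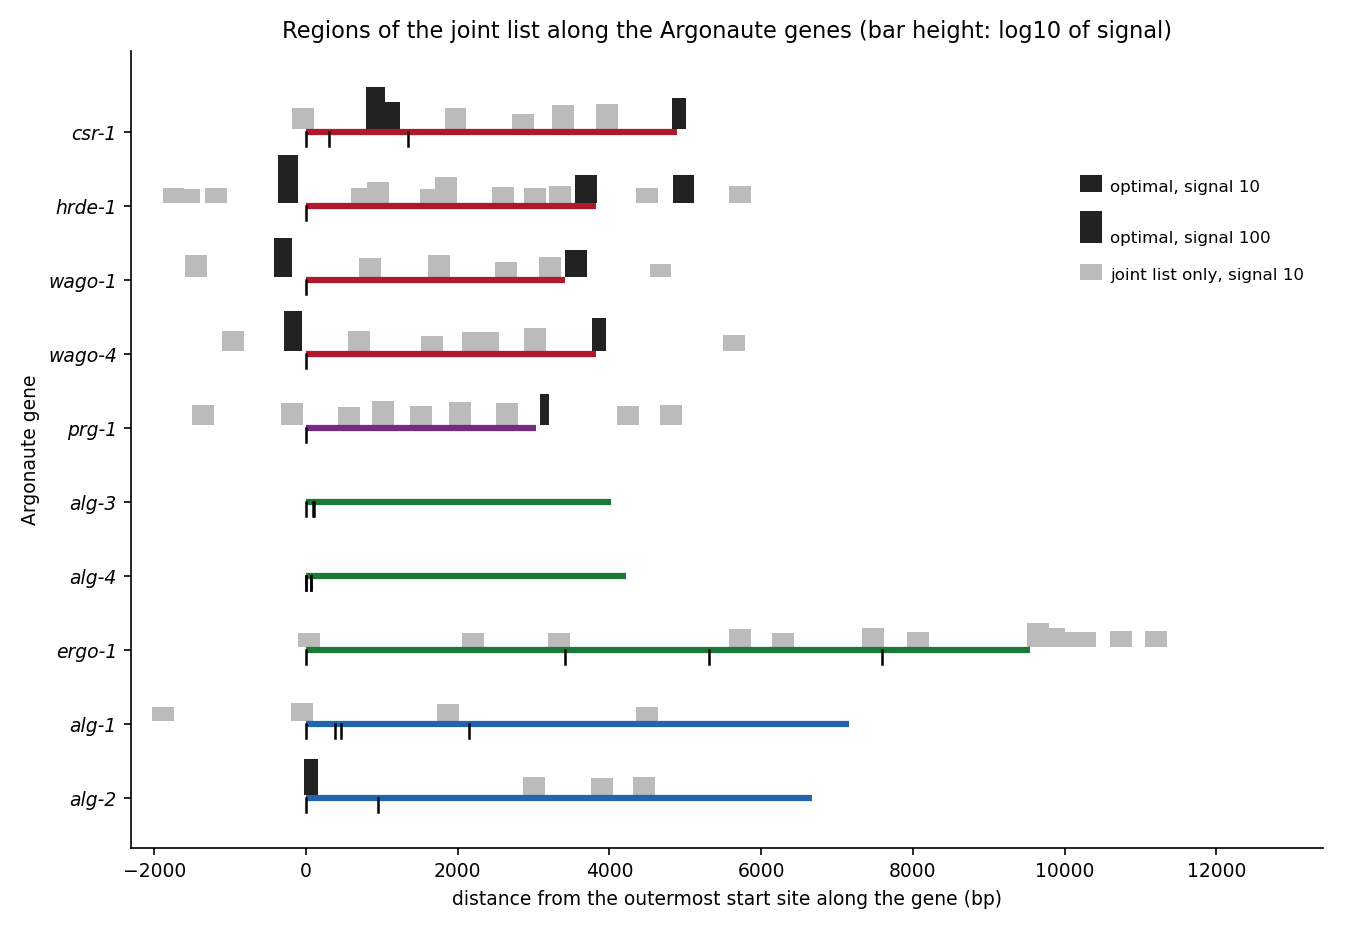
Regions of the joint list along each Argonaute gene, by distance in bp from the outermost start site along the gene; bar height is log10 of the signal, black bars are optimal peaks, grey bars are joint-list regions alone, and ticks below the line are start sites. Optimal peaks stand at or near the starts of hrde-1, wago-1, wago-4 and alg-2, and at csr-1 inside the gene, ahead of an internal start site. They also stand near the ends of csr-1, hrde-1, wago-1, wago-4 and prg-1, while alg-3 and alg-4 have no bar.

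Other genes of the small RNA pathways were taken from lists of 69 names, of which 64 matched the annotation. Of these, 23 had a promoter peak, which is 35.9%, beside 10.9% of all genes, and the median signal was 82.8. Another 27 had a joint-list region alone. Over all 19973 genes, 7091 had a joint-list region, and these include the 2187 with a promoter peak. The lists were chosen with earlier results of these data known, so these counts are a description.

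Among 10 other Argonautes, 2 had a promoter peak. The strongest was ppw-1, a secondary siRNA Argonaute, with a signal of 501, 259 in replicate 1 and 241 in replicate 2. Its paralogue ppw-2 had 70.2, with 44.4 in replicate 1 and 23.9 in replicate 2. Without a promoter peak were rde-1, the Argonaute of primary siRNAs from exogenous double-stranded RNA, with a joint-list signal of 25.8, and alg-5, with no region. No joint-list region was found either at wago-5, sago-2, sago-1, wago-10, nrde-3 and vsra-1, named here after their values were seen. They belong, with ppw-1 and ppw-2, to the worm-specific WAGO group, whose members carry secondary siRNAs. In all, 8 of the 10 other Argonautes had no promoter peak, and 7 of these had no region within 500 bp of a start site. By the same rule, 10.9% of all nuclear protein-coding genes had a promoter peak and 35.5% had a joint-list region. Within 1000 bp, 4 of the 10 had an optimal peak, beside 13.76% of all genes.

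RNA-dependent RNA polymerases make the secondary siRNAs that CSR-1, HRDE-1, WAGO-1 and WAGO-4 carry. Of 6 RNA-dependent RNA polymerases and cofactors, 3 had one: ego-1, a germ line polymerase, with 134, ekl-1, a cofactor, with 89.5, and rrf-3, the polymerase of primary siRNAs, with 47.7. The ekl-1 peak is shared with prpf-4 and the rrf-3 peak with emb-27. At rrf-3 replicate 1 had 37.6, rank 1698, and replicate 2 had 11.9, rank 6300. The polymerase gene rrf-1 had a joint-list signal of 8.54, and rrf-2 had no region. Of 7 Dicer and ERI genes, 5 had a promoter peak, eri-3 with 82.8, eri-5 with 79.4, rde-4 with 79.1 and dcr-1, which encodes Dicer, with 73.4 among them. The rde-4 value was 73.3 in replicate 1 and 6.62 in replicate 2. Its peak is shared with cox-14, and the dcr-1 peak with apc-2. The helicase gene drh-1 had a joint-list signal of 32.5 and eri-9 had 25.8.

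Mutator foci are germ granule sites where secondary siRNAs are amplified. Of their 10 genes, 2 had a promoter peak, mut-15 with 149, shared with fib-1, and rde-2 with 70.3. The nucleotidyltransferase gene mut-2 had a joint-list signal of 23.2 and the exonuclease gene mut-7 had 27.2. Of 9 genes of RNAi uptake and amplification, 3 had a promoter peak, at 91.0 for rde-10, 71.3 for rsd-2 and 49.0 for rde-11, and the rde-10 peak is shared with rnp-6. The double-stranded RNA channel gene sid-1 had a joint-list signal of 11.8, and sid-2 had no region.

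Nuclear RNAi and inheritance genes held the strongest promoter peak of the lists, at lotr-1. Of 9 genes, 3 had a promoter peak: lotr-1 with 520, shared with zhp-2, znfx-1, which encodes a helicase found with WAGO-4 in germ granules, with 388, and heri-1 with 53.1. At znfx-1 replicate 1 had 230 and replicate 2 had 162. The nuclear RNAi genes nrde-1 and nrde-2 had joint-list signals of 22.3 and 29.6. Of 10 microRNA pathway genes, 5 had a promoter peak. They were led by let-711, the scaffold of the CCR4-NOT deadenylase, with 250, ain-2, a GW182 protein that binds ALG-1 and ALG-2, with 217, pash-1, a partner of the Drosha nuclease, with 211, and xrn-2, an exonuclease, with 111. The ain-2 peak is shared with ptps-1. The genes ain-1 and nhl-2 had joint-list signals of 12.1 and 13.8. None of 3 genes of small RNA end modification had a promoter peak, and henn-1 and cid-1 had joint-list signals of 15.3 and 18.5.

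**Figure D4:**
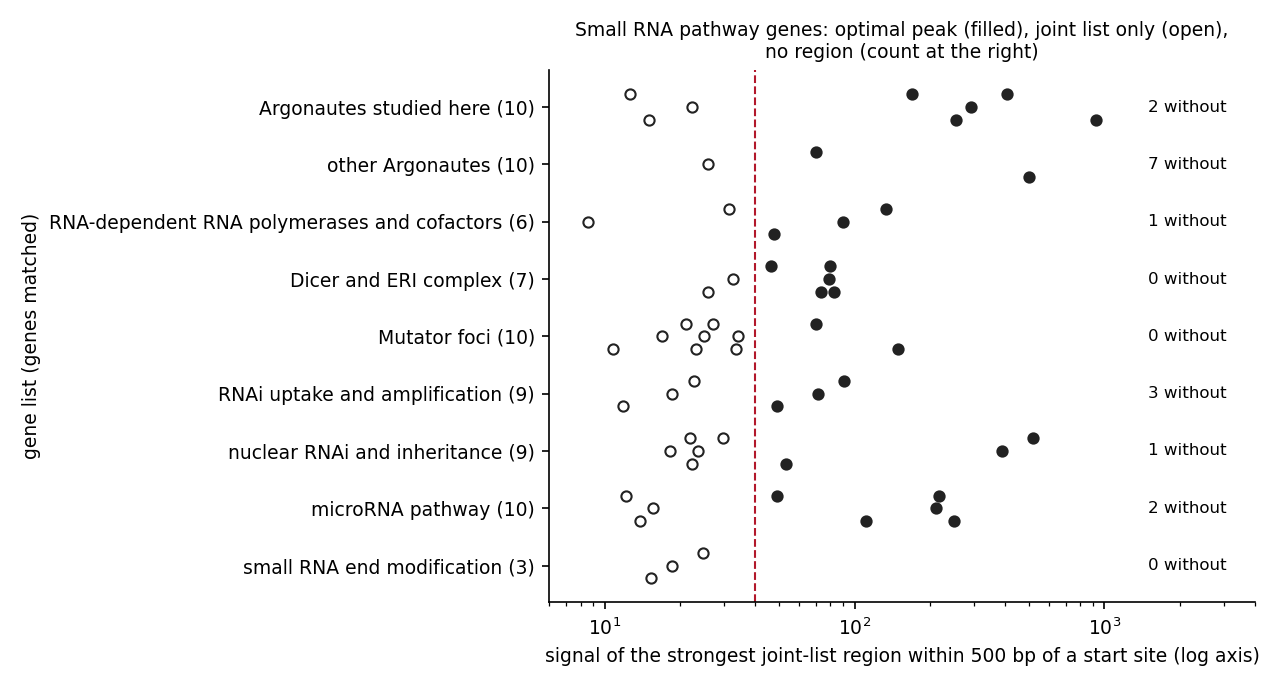
Signal (log axis) of the strongest joint-list region within 500 bp of a start site for each gene of the pathway lists, with the number of matched genes beside each list name. Filled points are optimal peaks, open points are joint-list regions alone, the dashed line is the lowest optimal signal, 40.1, and the number at the right counts genes with no region; the Argonautes described here reach 929, the highest value shown.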

How the data were processed

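The deposited narrowPeak lists were used on build ce11, per the labels, with the WBcel235 genome from RefSeq and the annotation of Ensembl release 115. The authors deposited a signal value for each region, on a scale no source used here gives, and a −log10 q-value, which is 3.88 in every optimal peak and was not used for ranking. No source used here names the IDR threshold, the caller of the peaks or the aligner. The mitochondrial regions were left out. The 29314 start sites are the 5′ ends of protein-coding transcripts. Where a gene had several peaks, the strongest was reported, and a replicate value is that of its strongest region overlapping by 1 bp or more. Read counts and protein comparisons were not analysed here. All 10 Argonautes were named, with coding genes sharing the summit of their strongest region, and in each pathway list the 4 strongest genes and the first 2 without a peak. The members and lists were chosen with earlier results of these data known. The 3′-end, gene-coverage and 36-base measures were added after seeing the data. Scripts used Python 3.11.15, pandas 2.3.3, numpy 2.4.6 and matplotlib 3.10.9. The assignment of summits to start sites, alone among the steps, was checked on 200 simulated summits placed within the window. All 200 were recovered, which checks the code and not the rule. Alternatives are given in the closing section.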

Additional observations from a re-analysis of the deposited data

How the results depend on the processing

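The count of Argonautes with a promoter peak was 5, beside 10.95% of all genes. It was also 5 within 1000 bp (13.76% of all genes), among the optimal peaks above the median signal (6.49%) and when weaker joint-list regions were added to double their number (16.79%). Within 200 bp it was 2, with csr-1, hrde-1 and wago-1 lost, beside 5.92% of all genes. It was 4 when the nearest start site alone counted (8.75%), with hrde-1 lost to C16C10.13, and 4 at outermost start sites (10.46%), with csr-1 lost. Each replicate's own list was also used alone, cut by signal to as many regions as the nuclear optimal peaks, without IDR. This gave 5 with replicate 2 (10.48% of all genes) and 5 with replicate 1 (10.67%). For the pathway lists the count of 23 was 15 within 200 bp, 29 within 1000 bp and 14 among the optimal peaks above the median signal. It was 35 with the weaker regions added and 20 to 23 with the list of 1 replicate alone. CHR letters were within the whole peak of 2 genes, and within 100 bp of the summit of 1. No paired analysis was possible because there is 1 group. Depth is unknown and limits what a missing region can show.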

Other observations

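Coverage of the Argonaute genes by joint-list regions was measured after the values were seen. It was 56.0% of hrde-1, 47.7% of prg-1, 37.0% of wago-4, 36.6% of csr-1, 34.0% of wago-1, 20.6% of ergo-1, 15.3% of alg-2 and 9.41% of alg-1, and 0 for alg-3 and alg-4. Over all nuclear protein-coding genes, 56.6% had no such region. The gene hrde-1 had more of its length covered than 98.7% of all genes and prg-1 more than 97.1%. Of the 36-base windows within 500 bp of start sites, those that occur once in the nuclear genome made up 89.6% at alg-2 and 92.7% at ergo-1, the lowest shares among the Argonautes.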
